A study of Homo sapiens with 4 samples.

Results

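Of the integrin subunit genes that act outside hemidesmosomes, 8 were examined in control and STAU1-depleted oral cancer cells, namely ITGA2, ITGA3, ITGA5, ITGAV, ITGB1, ITGB5, ITGB6 and ITGB8. They were chosen by name, with earlier results of these data known. They were found by their Ensembl identifiers among the 67008 genes of the count table. All 8 passed the filter on low counts that left 14303 tested genes. The experiment had 2 libraries of Ctrl cells, infected with a virus that carries an shRNA against luciferase, and 2 libraries of shSTAU1 cells, infected with a virus that carries an shRNA against STAU1. Both groups were described as wild type, so that they share the genotype and the infection and differ in the shRNA. The labels name a single shRNA per group. The labels give the line as an oral cancer line in one field and as C3H 10T1/2, a mouse fibroblast line, in another, while the organism is human and the growth conditions and the design name SAS cells, a tongue squamous carcinoma line. The libraries were read as SAS cells. The labels do not say whether the replicates were separate cultures or infections, so the p-values below measure only the spread between these libraries.

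Integrins are heterodimers of an alpha and a beta subunit that span the plasma membrane, bind extracellular matrix outside the cell and join the actin cytoskeleton inside it through adaptor proteins such as talin and kindlin. The pair decides the ligand. ITGB1 is the common beta subunit, and with ITGA2 it forms a collagen receptor, with ITGA3 a laminin receptor and with ITGA5 the classical fibronectin receptor. ITGAV pairs with ITGB1, ITGB3, ITGB5, ITGB6 or ITGB8, and these heterodimers bind matrix proteins such as vitronectin and fibronectin or the latent form of TGF-β. Hemidesmosomes, the anchors of epithelial cells on the basement membrane, are built instead on the pair of ITGA6 and ITGB4, which joins keratin filaments. STAU1 is a double-stranded RNA-binding protein that takes part in the transport, translation and decay of mRNA.

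The totals ran from 32206655 to 36301574 counts per library. STAU1 itself was at 249 and 251 CPM (counts scaled by TMM to a library of 1000000 reads) in the Ctrl libraries and at 41.6 and 41.5 CPM in the shSTAU1 libraries, a log2 fold change of -2.59 ± 0.13 (SE) with an adjusted p of 0.00103 by edgeR's quasi-likelihood test (0.490 without Ctrl replicate 1, where no gene passed). All 8 squamous epithelial markers (KRT5, KRT14, KRT6A, KRT17, TP63, SFN, CDH1 and EPCAM) passed the filter, with a summed level of 7066 to 7477 CPM in Ctrl and 8670 to 11314 CPM in shSTAU1. KRT5, a basal keratin, rose by 0.65 on the log2 scale (adjusted p = 0.0408) and SFN, the epithelial 14-3-3 protein, rose by 1.43 (adjusted p = 0.0285), while the other 6 did not pass the test. Both calls were lost without either Ctrl library or without the filter, and that for KRT5 also with scaling by library size alone (adjusted p = 0.0523). The 8 fibroblast markers summed to 17.9 and 22.8 CPM in Ctrl and to 11.1 and 10.2 CPM in shSTAU1, and COL3A1, DCN, LUM and THY1 had at most 3 counts in any library. The 6 leukocyte and endothelial markers summed to 7.73 to 18.1 CPM over the 4 libraries, nearly all from VWF and CDH5, with PTPRC, CD68 and PECAM1 at no more than 3 counts. A zero in this table can come from the counting: ACTN4 and ZYX, adhesion proteins that epithelial cells use widely, were listed at 0 to 3 counts. The part of the change in squamous markers in the results below was not tested. In such bulk libraries a smaller number of cells that express a gene and less RNA of it per cell cannot be told apart.

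Of the 8 subunits, ITGB8 rose in shSTAU1 cells and no subunit fell past the threshold of 0.05 on the adjusted p. Over all tested genes 372 passed this threshold, which is 2.60%, with 161 higher (1.13%) and 211 lower (1.48%). The other 7 subunits all had log2 fold changes below 0, from -0.32 for ITGAV to -1.10 for ITGA2, and in 6 of these 7 both shSTAU1 libraries lay below both Ctrl libraries. Among all tested genes the groups were apart in that direction for 28.0% and in the other direction for 28.5%. The median log2 fold change of the 8 subunits was -0.68, beside 0.01 over all tested genes. At an unadjusted p of 0.05, 5 of the 8 passed, beside 24.5% of all tested genes. The 8 subunits and the gene lists below were chosen with earlier results of these data known. Their counts and medians beside all tested genes are therefore descriptions and no test of the sets. The calls depended on single libraries: without Ctrl replicate 1 none of the 8 passed, nor did any other gene (0.00%), with 2 of the 8 at an unadjusted p under 0.05 (10.0% of all genes), and without shSTAU1 replicate 1 all 8 passed, beside 18.5% of all genes, with the same sign for each subunit in every fit.

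**Figure D1:**
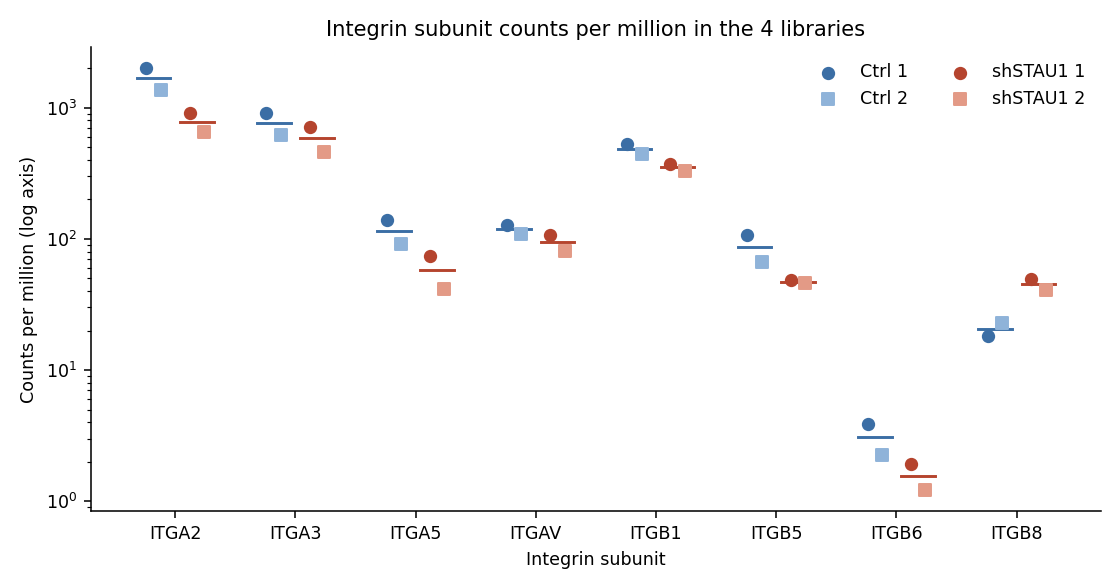
CPM, on a log axis, of the 8 integrin subunits in each Ctrl library (blue) and shSTAU1 library (red), with a bar at the mean of each group of 2. Both red points lie below both blue points for ITGA2, ITGA5, ITGAV, ITGB1, ITGB5 and ITGB6, the groups overlap for ITGA3, and both red points lie above the blue ones for ITGB8.

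ITGA2, the alpha subunit of the main epithelial collagen receptor (chr5:52989326-53094779 on GRCh38, plus strand), was the most highly counted of the 8. It was at 1984 and 1362 CPM in the Ctrl libraries and at 913 and 646 CPM in the shSTAU1 libraries. Both shSTAU1 libraries were below both Ctrl libraries, and their mean of 779 ± 189 CPM (SD, n = 2) was 46.6% of the Ctrl mean of 1673 ± 439 CPM (SD, n = 2). The log2 fold change was -1.10 ± 0.22 (SE), and its adjusted p of 0.0510 did not pass the threshold. Scaling by library size alone gave an adjusted p of 0.0478 and limma-voom gave 0.0476, so the call for ITGA2 turned on such choices.

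ITGA3, the alpha subunit of a laminin receptor of basal epithelial cells (chr17:50055968-50090481, plus strand), was at 902 and 616 CPM in Ctrl and at 716 and 457 CPM in shSTAU1. The higher shSTAU1 library lay between the Ctrl libraries, so that the groups overlapped. The log2 fold change of -0.37 ± 0.25 (SE) had an adjusted p of 0.384. The Ctrl libraries alone differed by 1.46 times, which is more than the difference between the group means.

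ITGA5, the alpha subunit of the fibronectin receptor (chr12:54395261-54419460, minus strand), was at 138 and 91.4 CPM in Ctrl and at 73.9 and 41.4 CPM in shSTAU1. The groups did not overlap, and the shSTAU1 mean was 50.2% of the Ctrl mean. The spread within groups was wide, with 1.51 times between the Ctrl libraries and 1.78 times between the shSTAU1 libraries. The log2 fold change of -0.99 ± 0.29 (SE) had an adjusted p of 0.0973 and did not pass.

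ITGB1, the beta subunit shared by the receptors above (chr10:32900319-33005792, minus strand), was at 530 and 443 CPM in Ctrl and at 370 and 331 CPM in shSTAU1. Both shSTAU1 libraries were lower, at 72.1% of the Ctrl mean, with a log2 fold change of -0.47 ± 0.14 (SE) and an adjusted p of 0.0986. The processed pseudogene ITGB1P1 on chromosome 19 was counted at 683 and 610 reads in Ctrl and at 499 and 419 reads in shSTAU1, which is 3.58% to 4.21% of the ITGB1 count of the same library. Its log2 fold change was -0.57 ± 0.19 (SE) with an adjusted p of 0.122. Reads of ITGB1 and of this pseudogene may be split between them or dropped where their sequences match, and the match was not measured. How such reads were counted is not known, so the ITGB1 count is uncertain. The genes that overlap the 8 subunits on the genome, among them ITGA2-AS1 and ITGB1-DT, had 0 to 2 counts in each library.

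The balance of alpha subunits against ITGB1 was read as the ratio of counts within each library. ITGA2 was counted at 3.74 and 3.08 times ITGB1 in Ctrl and at 2.47 and 1.95 times in shSTAU1. ITGA5 was at 0.261 and 0.206 times ITGB1 in Ctrl and at 0.200 and 0.125 times in shSTAU1. For both genes the shSTAU1 ratios were below the Ctrl ratios, though the gap between the groups was smaller than that between the Ctrl libraries. For ITGA5 it was also smaller than the gap between the shSTAU1 libraries. The ITGA3 to ITGB1 ratio overlapped between the groups, at 1.70 and 1.39 in Ctrl and 1.93 and 1.38 in shSTAU1. With 2 libraries a group an exact permutation test of such a ratio cannot go below a two-sided p of 0.333, so these ratios stand as descriptions.

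ITGAV, the alpha subunit shared by the receptors of vitronectin and latent TGF-β (chr2:186590065-186680901, plus strand), was at 128 and 108.0 CPM in Ctrl and at 107.7 and 81.4 CPM in shSTAU1. The groups were apart by a margin of less than 1 CPM, and the log2 fold change of -0.32 ± 0.17 (SE) had an adjusted p of 0.293.

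ITGB5, the partner of ITGAV in a vitronectin receptor (chr3:124761948-124901418, minus strand), was at 106 and 67.0 CPM in Ctrl and at 48.3 and 45.7 CPM in shSTAU1. The shSTAU1 libraries were close together and both lower, at 54.3% of the Ctrl mean. The log2 fold change was -0.88 ± 0.22 (SE), with an adjusted p of 0.0695.

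ITGB6, an epithelial partner of ITGAV that binds and activates latent TGF-β (chr2:160099666-160200313, minus strand), was the lowest of the 8, with 131 and 74 counts in Ctrl and 67 and 43 counts in shSTAU1. These are 3.90 and 2.26 CPM against 1.92 and 1.22 CPM. Both shSTAU1 libraries were lower, and the log2 fold change of -0.97 ± 0.42 (SE) had an adjusted p of 0.209.

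ITGB8, the other ITGAV partner that presents latent TGF-β for activation (chr7:20330702-20415754, plus strand), was at 18.1 and 23.0 CPM in Ctrl and at 49.8 and 40.9 CPM in shSTAU1. In counts these are 608 and 753 against 1735 and 1447. Both shSTAU1 libraries lay above both Ctrl libraries, and the mean rose from 20.5 ± 3.48 to 45.4 ± 6.29 CPM (SD, n = 2 each), a 2.21-fold rise. The log2 fold change was 1.14 ± 0.19 (SE), with an adjusted p of 0.0358, and ITGB8 ranked 137 by p among all tested genes. The call was lost without the filter on low counts (adjusted p = 0.0989), without Ctrl replicate 1 (adjusted p = 0.490) and without Ctrl replicate 2 (adjusted p = 0.0644). Without a library the log2 fold change stayed between 0.98 and 1.33.

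**Figure D2:**
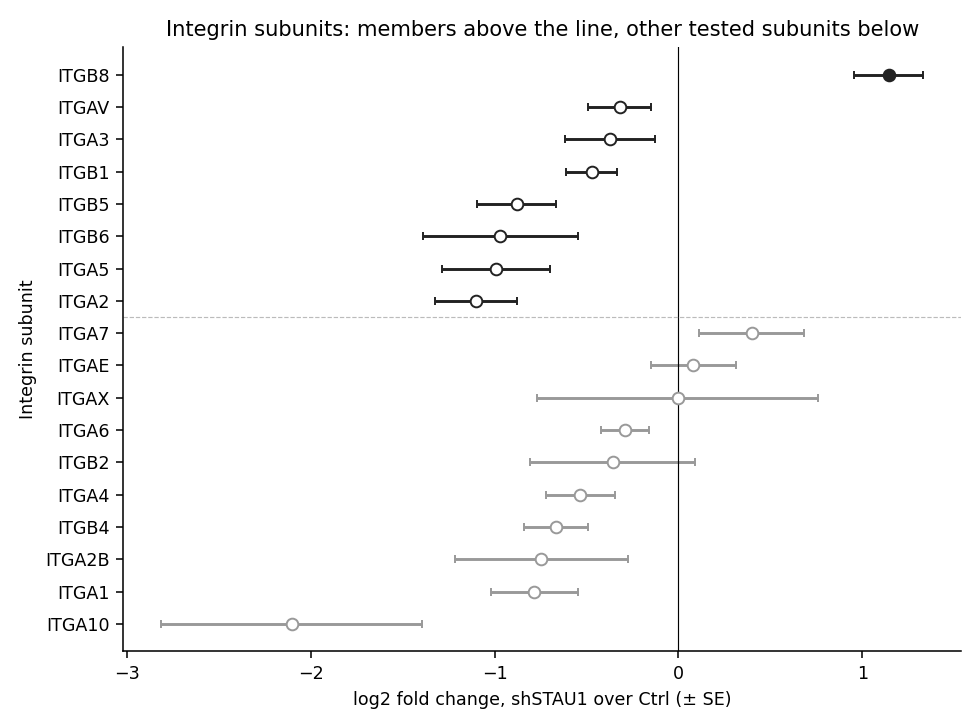
Log2 fold change of shSTAU1 over Ctrl with its SE for the 8 subunits (black, above the dashed line) and the 10 other integrin subunits that were tested (grey, below it), filled where the adjusted p was under 0.05. The ITGB8 point at 1.14 is the filled one, and the other 7 subunits of the upper part lie from -1.10 to -0.32.

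The relation between the ITGAV partners was followed within each library. ITGB8 was counted at 0.170 and 0.343 times ITGB5 in Ctrl and at 1.03 and 0.896 times in shSTAU1. Against ITGAV itself, ITGB8 was at 0.141 and 0.213 in Ctrl and at 0.463 and 0.503 in shSTAU1, while ITGB5 was at 0.830 and 0.620 in Ctrl and at 0.449 and 0.562 in shSTAU1. The Ctrl and shSTAU1 libraries did not overlap in any of the 3 ratios, the ITGB8 ratios being higher and the ITGB5 ratio lower in shSTAU1. The counts of ITGB6 relative to ITGAV were 0.0305 and 0.0209 in Ctrl and 0.0179 and 0.0150 in shSTAU1.

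Levels of different subunits were compared as CPM per kilobase of exon length. In Ctrl cells ITGA2 led at 211 ± 55.5 CPM per kilobase (SD, n = 2), followed by ITGB1 at 80.9 ± 10.2 and ITGA3 at 77.4 ± 20.6, then ITGA5 at 15.2 ± 4.38, ITGAV at 14.4 ± 1.71 and ITGB5 at 13.4 ± 4.30, and last ITGB8 at 1.36 ± 0.23. ITGB1 and ITGA3 did not differ beyond their spread, nor did ITGA5, ITGAV and ITGB5. In shSTAU1 cells the order was ITGA2 at 98.5 ± 23.9, ITGA3 at 59.8 ± 18.7, ITGB1 at 58.3 ± 4.63, ITGAV at 11.5 ± 2.27, ITGA5 at 7.61 ± 3.03, ITGB5 at 7.29 ± 0.29 and ITGB8 at 2.99 ± 0.41, where ITGA3 and ITGB1, and again ITGA5 and ITGB5, lay within their spread. The order of the leading subunits depended on the length used. Per kilobase of the longest protein-coding transcript ITGA3 was at 155 ± 41.3 and ITGB1 at 129 ± 16.3 in Ctrl, and in shSTAU1 ITGA3 at 119.9 ± 37.4 was above ITGA2 at 99.0 ± 24.0, each difference within the spread. Per kilobase of coding length ITGA2 at 220 ± 53.3 and ITGA3 at 186 ± 58.0 in shSTAU1 also lay within their spread. ITGB6 was the lowest of the 8 in both groups. The libraries were made with an exome capture kit, which draws on coding exons, and the exon length of ITGB8 (15156 bases) is mostly noncoding, with 2310 coding bases. Per kilobase of coding length ITGB8 was at 8.89 ± 1.51 in Ctrl and at 19.7 ± 2.72 in shSTAU1, where it did not differ beyond the spread from ITGB5 at 19.6 ± 0.78 and ITGA5 at 18.3 ± 7.30.

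Among the beta subunits that pair with ITGAV, ITGB1 held most of the level per kilobase of exon length, with 84.1% ± 2.07 in Ctrl and 84.6% ± 0.05 in shSTAU1 (SD, n = 2 each). Per coding length the ITGB1 share was 80.4% and 82.6% in Ctrl and 78.4% and 78.7% in shSTAU1. The groups overlapped by exon length, while by coding length both shSTAU1 libraries were lower. Part of ITGB1 pairs with other alpha subunits, so the others were also compared among themselves. Without ITGB1, ITGB5 made up 89.1% and 83.7% of the level in Ctrl and 67.0% and 70.5% in shSTAU1, and ITGB8 made up 6.45% and 12.2% in Ctrl and 29.4% and 26.9% in shSTAU1. The ITGB8 share was higher and the ITGB5 share lower in both shSTAU1 libraries than in either Ctrl library. Per coding length the ITGB8 share was larger throughout, at 14.6% and 25.6% in Ctrl and at 50.7% and 47.5% in shSTAU1, so its size depends on the length used. A gene has the same length in every library, so the higher ITGB8 share in shSTAU1 under each length is no separate result. ITGB6 stayed below 4.50% in every library, and ITGB3 was listed at 0 to 3 counts.

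**Figure D3:**
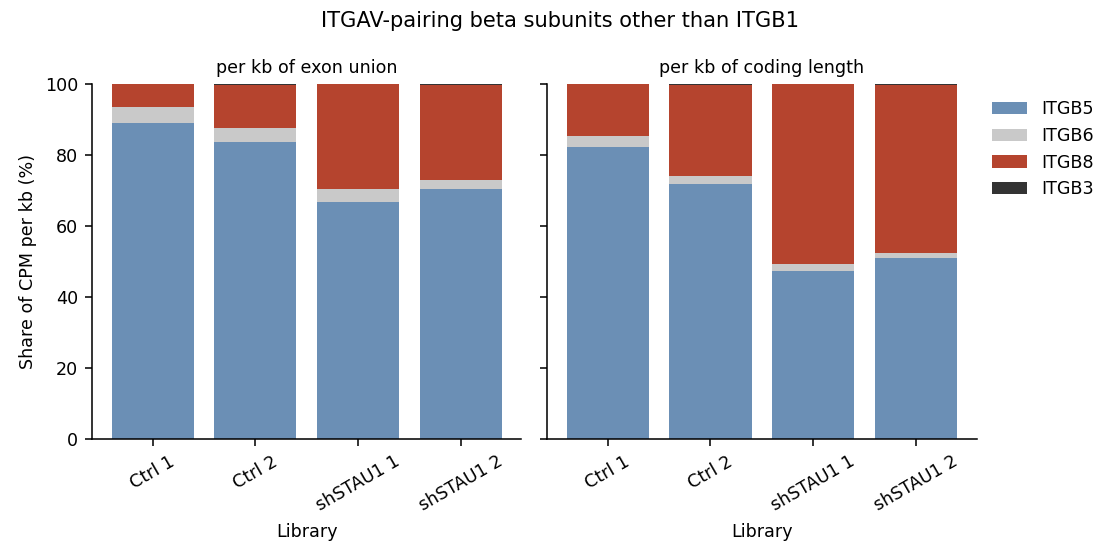
Share, in percent of the summed CPM per kilobase, of ITGB5, ITGB6, ITGB8 and ITGB3 in each library, per kilobase of exon length on the left and of coding length on the right. The ITGB8 part grows from 6.45% and 12.2% in the Ctrl libraries to 29.4% and 26.9% in the shSTAU1 libraries on the left, and to about the size of ITGB5 on the right.

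Of the 18 other integrin subunits, 10 passed the filter and none passed edgeR's test on all 4 libraries without a block. At an unadjusted p of 0.05, 4 of the 10 passed (24.5% of all tested genes), and by DESeq2 2 passed (10.1%). ITGA6 and ITGB4, the hemidesmosome pair, had log2 fold changes of -0.29 ± 0.13 and -0.67 ± 0.17 (SE), with adjusted p of 0.225 and 0.0765. ITGB4 was at 1585 and 1496 CPM in Ctrl and at 1135 and 804 CPM in shSTAU1. ITGA1 and ITGA4, further partners of ITGB1, were at -0.78 ± 0.24 and -0.53 ± 0.19, with adjusted p of 0.102 and 0.136. ITGA10, another collagen-binding partner of ITGB1, had the value farthest from 0 at -2.10 ± 0.71 on fewer than 3 CPM in each library, with an adjusted p of 0.128. ITGA7, a laminin-binding subunit of muscle, was at 0.40 ± 0.29, and ITGA2B, ITGAE, ITGAX and ITGB2, mostly subunits of platelets and leukocytes, were at -0.75, 0.08, -0.004 and -0.36, with adjusted p from 0.362 to 0.998 for these 5. The other 8 were filtered out, and ITGA8 was listed at 0 in all 4 libraries. The median over the 10 tested was -0.45, beside -0.68 for the 8 subunits described here and 0.01 for all tested genes.

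Of the 27 matrix proteins and other ligands that integrins bind, 23 were tested, 7 fell (1.48% of all tested genes did) and 1 rose (1.13%). The epithelial laminin chain LAMA3, a ligand of ITGA3 with ITGB1, went from 1540 and 1336 CPM to 449 and 535 CPM, a log2 fold change of -1.55 ± 0.14 (SE) with an adjusted p of 0.0108. COL4A2, a basement membrane collagen chain, fell by 1.22 (adjusted p = 0.0108), and COL1A1, the fibrillar collagen chain and also one of the fibroblast markers, fell by 1.35 at 15.7 and 20.2 CPM in Ctrl and 7.84 and 6.25 CPM in shSTAU1 (adjusted p = 0.0360). COL4A1, LAMB3 and THBS1 also fell. COL1A2, like COL1A1 a ligand and a fibroblast marker, went the other way, from 40 and 55 counts in Ctrl to 75 and 128 in shSTAU1. Its log2 fold change of 1.01 ± 0.41 (SE) had an adjusted p of 0.185 in edgeR's test. NPNT, the ITGA8 ligand nephronectin, rose from 5 counts in each Ctrl library to 229 and 44 counts, a log2 fold change of 4.66 ± 0.89 (SE) with an adjusted p of 0.0424. Its size rested on shSTAU1 replicate 1, since it was 3.03 without that library, and its call was lost with limma-voom (adjusted p = 0.121). The median of the tested ligands was -0.34. Without Ctrl replicate 1 no ligand passed and no gene at all did (9 ligands at an unadjusted p under 0.05, beside 10.0% of all genes), without Ctrl replicate 2, 3 did (0.427% of all genes), and without the filter 2 did (0.0443%).

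Genes whose products act on integrins in the cell or membrane were read beside all tested genes, of which 2.60% passed the threshold. Of the 25 cytoplasmic adaptors and adhesion signalling genes, 23 were tested and none passed edgeR's test on all 4 libraries without a block or correction, with 4 at an unadjusted p under 0.05 (24.5% of all tested genes), 3 past the threshold by DESeq2 (10.1%) and 1 with the length and GC correction (2.41%). Their median log2 fold change was 0.16, with 18 of 23 above 0, beside 0.01 and 7211 of 14303 for all tested genes. Of the 8 genes listed as holding integrins inactive, such as FLNA and SHARPIN, 7 were tested. None passed the same test, with 1 at an unadjusted p under 0.05 and 1 by DESeq2, and their median was 0.15. The gene at an unadjusted p under 0.05 was TLE5, at a log2 fold change of 0.65 with an adjusted p of 0.0914 in edgeR's test. Whether TLE5 holds integrins inactive is uncertain. All 13 membrane partners were tested, and 1 fell (1.48% of all tested genes did). This was PLAUR, the urokinase receptor that associates with integrins, which fell by 1.05 (adjusted p = 0.0461), from 21.6 and 16.7 CPM to 9.42 and 9.05 CPM. The call for PLAUR was lost with limma-voom (adjusted p = 0.0519). Of the 19 genes of integrin trafficking, 18 were tested and 1 rose (1.13% of all tested genes did). This was AP2M1, a subunit of the clathrin adaptor that takes receptors into the cell, which rose by 0.67 (adjusted p = 0.0366), from 193 and 202 CPM to 309 and 320 CPM. Where each library was corrected for its trend with length and GC content, its adjusted p was 0.0508. Both calls were also lost without Ctrl replicate 1 (adjusted p = 0.490 each), without Ctrl replicate 2 (0.106 for PLAUR and 0.216 for AP2M1) and without the filter (0.117 and 0.0989). The medians of these last 2 lists were 0.02 and 0.08.

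**Figure D4:**
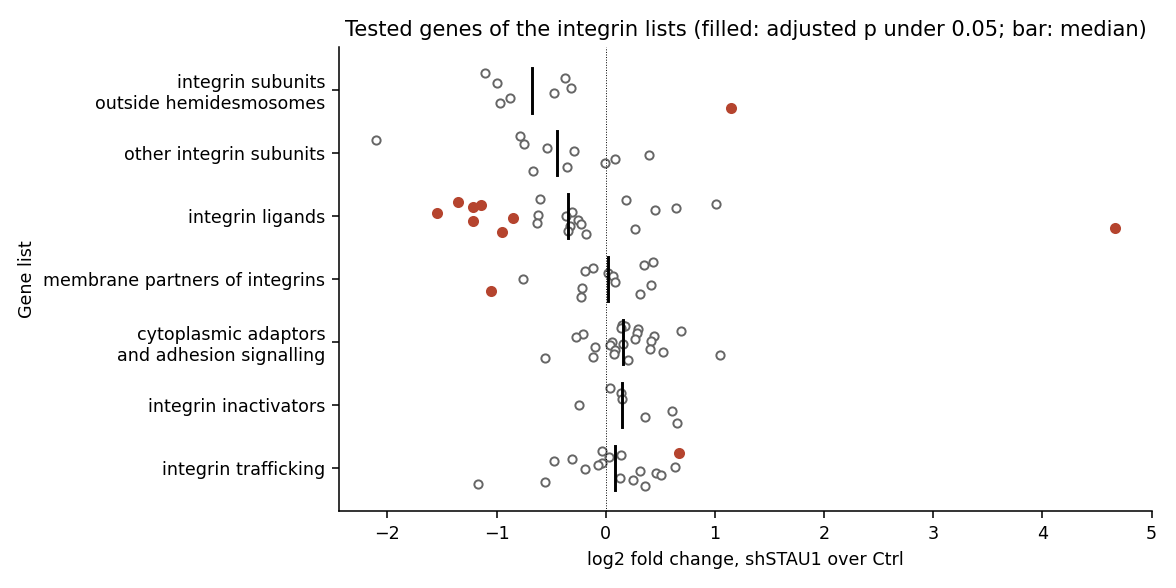
Log2 fold change of shSTAU1 over Ctrl for each tested gene of the 7 integrin lists, filled red where the adjusted p was under 0.05, with a bar at the median of each list. The medians of the subunits and ligands lie at -0.68, -0.45 and -0.34, and those of the other 4 lists between 0.02 and 0.16.

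The 3 tested genes whose pattern over the 4 libraries was most like that of ITGB8 were CYBRD1, BAG1 and TNS2, by the Euclidean distance of centred log2 CPM among the 7769 genes whose mean level reached 10 CPM. The distances were 0.168, 0.179 and 0.210. CYBRD1, a membrane ferric reductase, was at 8.06 and 8.70 CPM in Ctrl and at 20.9 and 17.1 CPM in shSTAU1. BAG1, a cochaperone, was at 17.3 and 21.9 CPM in Ctrl and at 41.0 and 38.0 CPM in shSTAU1. TNS2, a tensin that binds the tails of beta subunits, was at 8.83 and 10.2 CPM in Ctrl and at 22.9 and 16.4 CPM in shSTAU1, with an adjusted p of 0.0568. These genes were chosen for this likeness over 4 libraries, and many genes that differ between the groups share it in part.

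The 3′ UTRs of the 8 subunits were searched on the mRNA strand for the overlapping words AAGAGAA and AGAGAAA, because an earlier scan of these same fold changes had singled these out in 3′ UTRs. The longest protein-coding transcript of each gene in GENCODE 29 was used. A word was found in 4 of the 8, once each in ITGA2, ITGA5 and ITGB6 and at 2 separate places in ITGB8. The sites are shown with 8 flanking bases on each side, 5′ to 3′ on the mRNA, with the word or the overlapping pair of words in capitals, to let the matched letters of subunits with opposite fold changes be compared.
ITGA2, chr5:53090719-53090742: ggtattttAAGAGAAAactgcagg
ITGA5, chr12:54395433-54395455: tgttccccAGAGAAAggggagcc
ITGB6, chr2:160101542-160101565: taatcaagAAGAGAAAtatcctta
ITGB8, chr7:20410175-20410197: actttttcAGAGAAAaatgtgtc
ITGB8, chr7:20412120-20412142: ctaccctaAAGAGAActgaaaaa

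ITGA2 and ITGB6 hold both words in a single run of letters, 128 and 179 bases into the 3′ UTR. The 4 genes with a word included ITGA2, ITGA5 and ITGB6, which had the most negative fold changes of the 8, and ITGB8, which rose. ITGA3, ITGAV, ITGB1 and ITGB5 held neither word. Such words are common in long 3′ UTRs: among 3′ UTRs of 0.8 to 1.25 times the length, 72.1% held one at the length of ITGA2, 26.5% at that of ITGA5, 44.1% at that of ITGB6 and 82.6% at that of ITGB8, whose 3′ UTR has 5757 bases. At the lengths of the 4 genes without a word the share was 31.8% to 67.2%. The words were picked on the genes of this experiment, so their presence in a subunit is a description of its sequence.

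**Figure D5:**
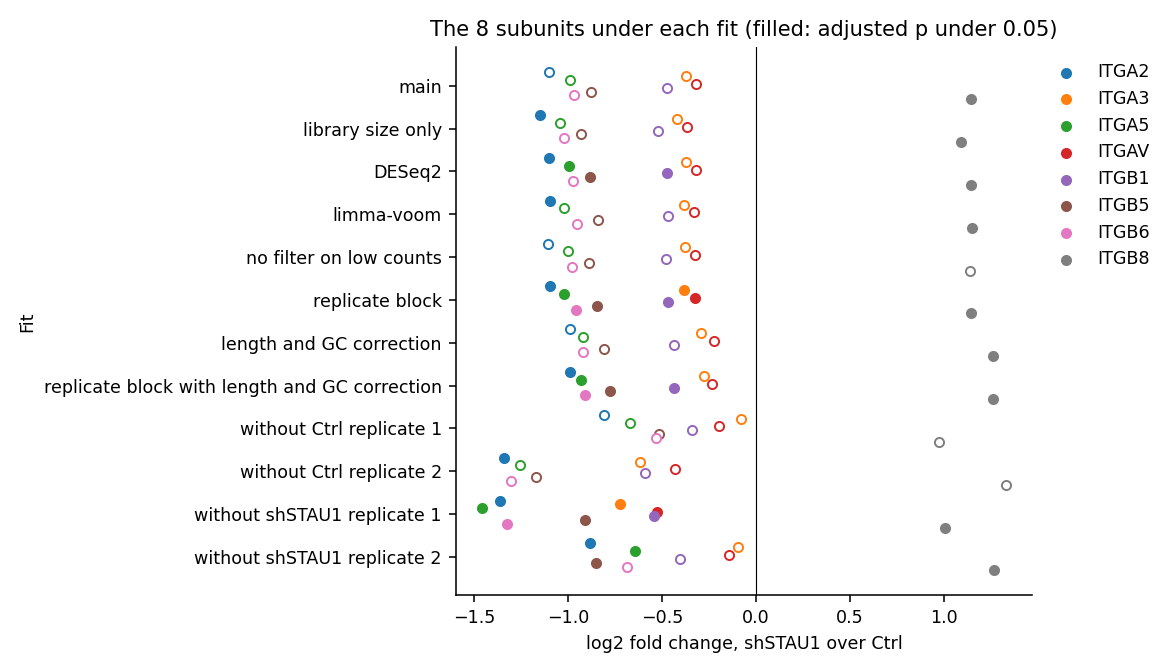
Log2 fold change of each of the 8 subunits (colours) under the fit used throughout (main) and each other fit, filled where the adjusted p was under 0.05. ITGB8 lies to the right of 0 and the other 7 lie to the left of it in every fit, while the number of filled points runs from 0 to 8.

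The fits share the same libraries, so a subunit whose groups did not overlap could hardly change sign when a library was left out. The direction of each subunit was the same across the 12 fits, whereas the number past the threshold was not. Beside the fits with the replicate number as a block, which are given among the processing alternatives, it was 1 in the fit used throughout, 2 when libraries were scaled by library size alone (2.82% of all tested genes passed) or fitted with limma-voom (2.54%), 5 with DESeq2 (10.1%), 1 with the length and GC correction (2.41%) and 0 without the filter on low counts (0.0443%). At an adjusted p under 0.10 it was 5 (11.1% of all tested genes), and at a fold of 1.5 with an unadjusted p under 0.05 it was 4 (14.7%). Leaving out Ctrl replicate 1 gave 0 subunits (0.00%), Ctrl replicate 2 gave 1, which was ITGA2 (0.427%), shSTAU1 replicate 1 gave 8 (18.5%) and shSTAU1 replicate 2 gave 4 (14.5%). ITGA3 and ITGAV, which had the values nearest to 0, came closest to it at log2 fold changes of -0.079 without Ctrl replicate 1 and -0.14 without shSTAU1 replicate 2.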

How the data were processed

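RNA-sequencing of SAS cells was analysed from the gene counts that the authors deposited as whole numbers without normalization, in 2 Ctrl and 2 shSTAU1 libraries. Libraries were made from total RNA with an exome capture kit. The submitters' processing notes name Partek and hg38, and neither aligner, counter, strandedness nor annotation release is given in the sources used here. Counting without strand would add reads of antisense genes to a subunit. The members and the gene lists were chosen with earlier results of these data known.

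The groups were compared with edgeR 4.0.16 under R 4.3.3 (filterByExpr, TMM, quasi-likelihood test over all 14303 genes, Benjamini-Hochberg adjustment, threshold 0.05). The biological coefficient of variation was 19.1%. Replicates differed beyond sampling noise, with a chi-square per degree of freedom of 25.2 for Ctrl and 60.0 for shSTAU1, and were kept as separate replicates. Positions, lengths and 3′ UTRs came from GENCODE 29 on GRCh38, which holds 58561 of the 67008 identifiers and may not be the authors' release, and 42359 identifiers had a symbol. Levels per length are CPM per kilobase of the union of exons, with the longest protein-coding transcript as an alternative and its coding length as an alternative chosen after seeing the data. Other alternatives were library size only, DESeq2 1.42.0, limma 3.58.1 (voom), no filter, the replicate number as a block, a correction for length and GC content (loess, 98.99% of tested genes), both together, other thresholds and leaving out each library. On counts simulated for this comparison over 14303 genes with 200 changed, edgeR made 112 calls, 4 of them false, and recovered 42.3% of genes changed 2-fold and 66.7% of those changed 4-fold. DESeq2 made 145 calls with 27 false, limma-voom 111 with 4 false, and edgeR with the replicate block 160 with 34 false. The simulated counts held no effect of the replicate number, so they cannot tell how the block fit acts on these data.

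Genes were named by rule: the 8 subunits, STAU1, every other integrin subunit tested, for each list the genes past the threshold or the 4 with the largest changes in a direction, the 3 genes closest in pattern to the subunit with the lowest p, and genes that overlap a subunit or are its pseudogenes. COL1A2, COL4A1, LAMB3, THBS1, TLE5, ACTN4, ZYX, the listed markers and example genes of a list were named after their values were seen. The values of a ligand gene named by the rule are not reported here. No set test was run.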

Additional observations from a re-analysis of the deposited data

How the results depend on the processing

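No subunit changed direction under any alternative run, which is no separate check where the groups did not overlap, but the calls moved with most alternatives. Genes past the threshold numbered 372 in the fit used throughout, 1449 with DESeq2, 11 without the filter, 4087 (28.6%) with the replicate block, 4039 (28.2%) with the block and the length and GC correction, 1585 at an adjusted p under 0.10 and 2098 at a fold of 1.5 with an unadjusted p under 0.05, and 0 to 2780 when a library was left out. The 0 came without Ctrl replicate 1 in edgeR, where 1502 genes had an unadjusted p under 0.05. The subunits past the threshold numbered 1, 5, 0, 8, 6, 5 and 4 in the same order, 2 with library size only or limma-voom, and 0 to 8 when a library was left out; without the filter, 5 had an unadjusted p under 0.05. In the fits without a library, the lone library of a group was assumed to vary like the other group.

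ITGA2, at -1.10, passed the adjusted p under 0.10 and the fold criterion, and also passed at -1.15 with library size only, -1.10 with DESeq2 and with limma-voom, -1.10 with the replicate block and -0.99 with block and correction. ITGA5 and ITGB5, at -0.99 and -0.88, passed both looser criteria, and passed at -0.997 and -0.88 with DESeq2, -1.02 and -0.85 with the block, and -0.93 and -0.78 with block and correction. ITGB1, at -0.47, passed at an adjusted p under 0.10, at -0.47 with DESeq2 and with the block, and at -0.44 with block and correction. ITGB6 passed at -0.96 with the block and -0.91 with block and correction, and ITGA3 and ITGAV passed at -0.38 and -0.33 with the block. ITGB8 lost its call at 1.14 without the filter. Without a library the log2 fold change ran from -1.36 to -0.81 for ITGA2, -0.72 to -0.079 for ITGA3, -1.46 to -0.65 for ITGA5, -0.53 to -0.14 for ITGAV, -0.59 to -0.34 for ITGB1, -1.17 to -0.51 for ITGB5, -1.33 to -0.53 for ITGB6, 0.98 to 1.33 for ITGB8 and -2.60 to -2.58 for STAU1, whose call was lost without Ctrl replicate 1. The cause of these changes was not tested.

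With the block 6 of the 10 other integrin subunits and 5 of the 23 adaptors passed, and with block and correction 4 and 9. The replicate number was not taken as a pairing, since there are 2 pairs and the labels do not say that it marks a batch. Deviations of same-numbered libraries correlated at 0.27 over all tested genes and at 0.587 over the 4791 genes above a log2 CPM of 5. ITGB8 as a share of the beta subunits that pair with ITGAV was 1.44% in Ctrl and 4.33% in shSTAU1 by exon length, 4.75% in shSTAU1 by the longest protein-coding transcript, and 3.65% and 10.5% by coding length. Among other named genes, 3 that did not pass changed sign: ITGAX, at -0.004, was at 0.046 with the length and GC correction, and when a library was left out ITGAE, at 0.08, ran from -0.22 to 0.33, ITGAX from -1.06 to 0.59 and ITGB2, at -0.36, from -1.28 to 0.19. Counts below 100, as for ITGB6 in 3 libraries, limit what could be seen.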
